A study of Mus musculus with 2 samples.

Results

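The genes described here are 7 stefin A genes of a cluster on mouse chromosome 16 (Stfa2, Stfa2l1, Stfa3, Csta3, Cstdc4, Cstdc5 and Cstdc6), together with stefin B (Cstb) on chromosome 10. They are 8 of the 32285 genes listed in each library, and all 8 were detected. They were chosen by their levels in neutrophils and macrophages of these same libraries and by their correlations across neutrophils, so those levels and correlations are given as a description with no test. Cstb belongs to the same protein family but lies outside the cluster.

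4T1 is a mouse mammary carcinoma cell line. 4T1P is its parental form, which does not respond to anti-PD1 antibody, and 4T1M is a multiclonal derivative made by exposing 4T1P cells to the mutagen MNNG, which does respond. Tumors grown in BALB/c mice, 6 to 8 weeks old according to the labels, were taken before any treatment. GR1+ cells were collected with magnetic beads, and 1 droplet library (10x Genomics) was made per condition from pooled mice, 5 by the series record and fewer by a figure legend of the study. GR1 is an epitope shared by Ly6G and Ly6C, so both neutrophils and monocytic cells are retained. Because there is 1 library per condition, no difference between 4T1P and 4T1M has a replicate check, and the 95% intervals below cover counting error only.

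Stefins are small proteins without a secretion signal that stay inside the cell and block cysteine cathepsins, the papain-like proteases of lysosomes, by wedging into the active site. Stefin B is made in most cell types, and stefin A in mammals is best known from skin and from white blood cells. In the mouse the stefin A gene has multiplied into a cluster, and its products are among the abundant transcripts of neutrophils and of their bone marrow precursors.

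The deposited values are counts of UMIs, the molecular tags that mark single captured transcripts. The 4T1P library held 2947 barcodes with 21855657 UMIs and the 4T1M library 5004 barcodes with 24303957 UMIs, with 5 barcodes found in both. The analysis used barcodes with 500 to 5000 genes whose mitochondrial genes took no more than 10% of UMIs, 1726 and 3461 in number. Neutrophils were the kept cells with at least 1.5% of UMIs from S100a8 and S100a9 and under 0.5% from C1qa, C1qb, C1qc and Apoe (612 cells in 4T1P, 1686 in 4T1M, with medians of 3054.5 and 2957.5 UMIs). Macrophages had under 1.5% from the S100 pair and at least 0.3% from C1qa, C1qb, C1qc, Apoe, Csf1r, Cd68 and Fn1 (798 and 976 cells, with medians of 9727 and 9213.5 UMIs). The 6 fixed neutrophil markers summed to 167681 and 136523 CPM (a gene's UMIs scaled to the total of its class) in neutrophils against 604 and 1184 CPM in macrophages, and the 9 macrophage markers to 651 and 715 CPM against 19844 and 19236 CPM. No defining marker of either class was at 0 in its own class.

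The inhibitory loop of these proteins is encoded in exon 2 of every member, and its codons are shown here because they mark what the family shares and where its members differ. Stefins touch a cathepsin through a loop with the pattern Gln-X-Val-X-Gly, which begins at codon 52 in Stfa2, Stfa2l1 and Stfa3, at codon 46 in Csta3, Cstdc4, Cstdc5 and Cstb and at codon 45 in Cstdc6 of GENCODE's GRCm38 transcripts. Each window below is 45 bases of coding sequence, 5′ to 3′ on the gene's own strand, with the 15 bases of the 5 loop codons in capitals. In genome order the capitals lie at chr16:36160015-36160029 (Stfa2l1, plus strand), chr16:36186433-36186447 (Cstdc4, plus), chr16:36213587-36213601 (Csta3, plus), chr16:36322939-36322953 (Cstdc6, minus), chr16:36364230-36364244 (Cstdc5, minus), chr16:36405148-36405162 (Stfa2, minus), chr16:36452169-36452183 (Stfa3, minus) and chr10:78426996-78427010 (Cstb, plus). The windows of Stfa2 and Stfa2l1 are identical, as are those of Cstdc5 and Cstdc6.
Stfa2: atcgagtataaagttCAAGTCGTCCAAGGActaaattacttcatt
Stfa2l1: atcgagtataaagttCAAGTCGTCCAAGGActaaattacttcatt
Stfa3: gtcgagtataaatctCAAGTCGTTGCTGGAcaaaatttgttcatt
Csta3: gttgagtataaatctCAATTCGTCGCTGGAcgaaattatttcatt
Cstdc4: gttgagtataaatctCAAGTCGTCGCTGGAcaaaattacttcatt
Cstdc5: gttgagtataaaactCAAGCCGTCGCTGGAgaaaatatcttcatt
Cstdc6: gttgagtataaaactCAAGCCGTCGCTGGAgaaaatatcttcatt
Cstb: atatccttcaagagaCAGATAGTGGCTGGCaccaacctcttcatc

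Across the whole coding sequence the 7 stefin A genes were 74.8% to 96.4% identical to each other (median of 21 pairs 79.3%) and 52.1% to 61.7% identical to Cstb. The closest pairs were Stfa2 with Stfa2l1 (96.4%) and Cstdc5 with Cstdc6 (95.2%). Of the relatives that are not members, Stfa1 was 97.9% identical to Cstdc5 and Csta2 was 96.9% identical to Cstdc4. Such likeness can blur a count, since reads that match several genes equally are usually dropped. Of the 90-base windows of the transcripts, 8 of 382 in Stfa2, 50 of 325 in Cstdc4, 88 of 530 in Cstdc5 and 49 of 298 in Cstdc6 also occurred in a relative, against 0 of 323 in Stfa3, 0 of 205 in Csta3 and 0 of 514 in Cstb. In the last 250 bases of the transcript, 39 of 161 windows of Cstdc5 and 21 of 161 of Cstdc6 were shared, so the counts of these 2 genes and the split between them are uncertain. Csta3 is annotated by its coding sequence alone, so reads in any longer transcript end may be missed. The reads came from BALB/c cells and were counted against the reference genome, and copy number of the cluster in BALB/c was not tested.

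The cluster spans chr16:36119946-36455392 (GRCm38) from Csta1 to Stfa3. Its members are Stfa2l1 (ENSMUSG00000059657), Cstdc4 (ENSMUSG00000079597, Gm5483 in the older annotation) and Csta3 (ENSMUSG00000094733, Gm5416) on the plus strand, and Cstdc6 (ENSMUSG00000079594, BC117090), Cstdc5 (ENSMUSG00000071561, BC100530), Stfa2 (ENSMUSG00000022902) and Stfa3 (ENSMUSG00000054905) on the minus strand. Cstb is ENSMUSG00000005054, at chr10:78425669-78427622 on the plus strand. RefSeq's GRCm38.p6 promoter sequences, 250 bases before to 50 after the gene start, were available for 6 of the 7 stefin A genes, all but Cstdc6. They were 58.0% to 90.5% identical to each other (median of 15 pairs 68.4%).

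The sequence TTTAAAA occurred in all 6 of these promoters, on the gene's strand, against 8.74% of 32851 mouse promoters on either strand and 5.76% on the sense strand. This motif was picked after the sequences had been seen, and the 6 copies descend from each other, so the count describes the family and is no sign of a factor at work. It began 29 bases before the annotated gene start in Stfa2, 33 in Stfa2l1, 31 in Stfa3, 29 in Cstdc4, 77 in Csta3 and 9 in Cstdc5. The box and the bases around it, with TTTAAAA in capitals, are shown for the 4 genes where this window overlaps no annotated exon, to let the alignment of the copies be read directly. They lie at chr16:36156728-36156794 (Stfa2l1, plus strand), chr16:36455407-36455473 (Stfa3, minus), chr16:36210276-36210342 (Csta3, plus) and chr16:36184133-36184199 (Cstdc4, plus).
Stfa2l1: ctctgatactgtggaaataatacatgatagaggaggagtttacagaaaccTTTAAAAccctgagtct
Stfa3: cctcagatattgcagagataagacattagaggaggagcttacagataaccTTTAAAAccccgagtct
Csta3: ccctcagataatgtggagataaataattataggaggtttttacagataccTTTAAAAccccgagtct
Cstdc4: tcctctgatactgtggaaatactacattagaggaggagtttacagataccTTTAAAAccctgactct

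Other motifs were searched on both strands of the same 6 promoters. TATAAA was in 0 of 6 (13.6% of all promoters). The perfect C/EBP palindrome TTGCGCAA was in 0 (0.183%) and its loose form TTNNGNAA in 5 (40.7%). The PU.1-type sequence GAGGAAG was in Cstdc4 and Cstdc5 (13.6%), and the AP-1 sequence TGACTCA was in Stfa3 alone (5.20%). The NF-kB sequence GGGACTTTC (0.353%) and the interferon-response pattern AAANNGAAA (10.6%) were in none. The loose forms partly overlap other motifs, and a match or a miss in this window describes letters only.

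The cysteine protease inhibitors of the stefin A cluster were a minor but readily counted part of neutrophil RNA. Together the 7 genes reached 5195 CPM (5107 to 5286) in 4T1P neutrophils and 5562 CPM (5505 to 5620) in 4T1M neutrophils, from 13004 and 36600 UMIs. A UMI stands for 1 transcript and is not divided by gene length, so these levels are shares of captured molecules. The order of the 7 was the same in both libraries.

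Cstdc4 was the most abundant member, at 1502 CPM (1454 to 1551) in 4T1P and 1795 CPM (1762 to 1827) in 4T1M. Stfa2l1 followed at 1406 CPM (1360 to 1454) and 1487 CPM (1458 to 1517), its interval just below that of Cstdc4 in 4T1P. Cstdc5 stood at 957 CPM (919 to 996) and 972 CPM (949 to 996). Together these 3 genes held most of the family's transcripts, Cstdc4 alone 28.9% in 4T1P and 32.3% in 4T1M. Stfa2 stood at 826 CPM (791 to 863) and 792 CPM (770 to 814), and Stfa3 at 321 CPM (299 to 344) and 277 CPM (264 to 290). Cstdc6 reached 108 CPM (95.4 to 122) and 142 CPM (133 to 152). Csta3 was the lowest, at 75.1 CPM (64.8 to 86.6) and 97.1 CPM (89.7 to 105). The members thus spanned from under 100 to over 1000 CPM, and no neighbours in the order had overlapping counting intervals.

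Cstb, the widely made stefin B, stood at 877 CPM (840 to 914) in 4T1P neutrophils and 1186 CPM (1160 to 1213) in 4T1M neutrophils. Its interval overlapped that of Stfa2 in 4T1P, and in 4T1M it lay between Stfa2l1 and Cstdc5. The rest of the cluster was scarcely seen. Stfa1, the copy closest to Cstdc5, had 24 UMIs in 4T1P neutrophils and 90 in 4T1M neutrophils (9.59 and 13.7 CPM). Csta1 had 3 and 1 UMIs, and Csta2 had 0 and 3, where 3 UMIs correspond to 1.20 CPM in the 4T1P sum. In the last 250 bases of the transcript, 39 of 161 windows of Stfa1 were shared with a relative, and 0 of 161 of Csta2. Over its whole transcript Csta2 shared 50 of 550 windows. Transcripts whose reads match a near-identical member equally cannot be told apart from absent ones.

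**Figure D1:**
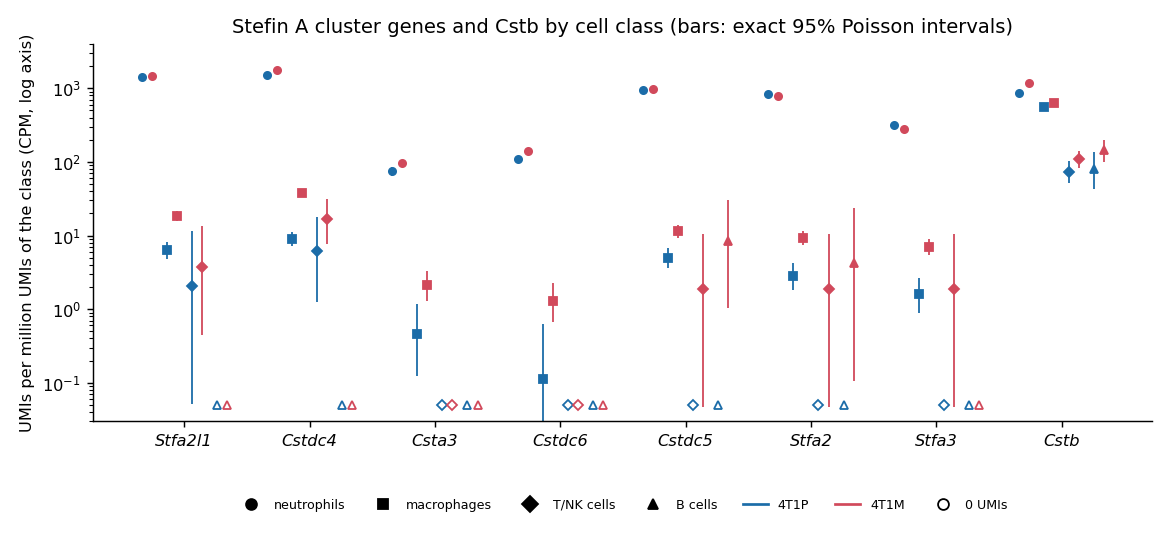
Level of each member in CPM on a log axis, by library, in neutrophils, macrophages, T and NK cells and B cells, with 95% Poisson intervals for counting error. Open markers at the foot of the axis stand for 0 UMIs and are not measured levels. The 7 stefin A genes lie between 75.1 and 1795 CPM in neutrophils and at or below 38.0 CPM in macrophages. Cstb lies between 558 and 1186 CPM in neutrophils and macrophages.

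The contrast with macrophages, which the choice of members used, was wide for stefin A and narrow for stefin B. In macrophages the 7 genes summed to 25.3 CPM (22.1 to 28.9) in 4T1P and 87.3 CPM (81.4 to 93.5) in 4T1M, from 222 and 816 UMIs. The neutrophil level was therefore 205-fold (180 to 235) the macrophage level in 4T1P and 63.7-fold (59.4 to 68.3) in 4T1M. The folds of single stefin A genes ran from 165 for Csta3 to 290 for Stfa2 in 4T1P, leaving out Cstdc6, which had 1 UMI in 4T1P macrophages and a ratio of 946 with an interval of 168 to 37492. In 4T1M they ran from 39.8 for Stfa3 to 111 for Cstdc6. For Cstb the same ratio was 1.57 (1.49 to 1.65) in 4T1P and 1.86 (1.80 to 1.92) in 4T1M.

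Part of the macrophage signal lay in few cells. Of the 222 stefin A UMIs in 4T1P macrophages, 52.3% were in the 10 highest cells, and of the 816 in 4T1M macrophages 37.0%, with up to 42 and 67 UMIs in a cell. At least 5 stefin A UMIs were found in 8 of 798 and 39 of 976 macrophages. The S100a8 and S100a9 transcripts of neutrophils were also found there, at 544 and 1081 CPM. For each 1000 UMIs of the S100 pair, stefin A gave 32.7 and 42.9 UMIs in neutrophils and 46.5 and 80.8 in macrophages. Restricting macrophages to cells with under 0.5% of the S100 pair left 10.7 and 37.4 CPM of stefin A with 315 and 560 CPM of the pair. Transcripts from doublets, from free RNA and from macrophages themselves cannot be told apart by these values.

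Shares of cells with a UMI were compared after thinning each cell to 1000 UMIs, since macrophages were deeper than neutrophils. A stefin A UMI was found in 71.7% (68.0% to 75.3%) of 612 neutrophils in 4T1P and 74.8% (72.6% to 76.9%) of 1682 in 4T1M, with 4 cells of 4T1M too shallow to thin. Without thinning the shares were 83.2% and 85.7%. In macrophages they were 2.59% (1.59% to 3.97%) and 6.71% (5.19% to 8.50%) thinned, and 11.3% and 21.9% unthinned. The majority of neutrophils thus held a stefin A transcript at 1000 UMIs and few macrophages did.

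T and NK cells, which should lack these genes, gave 0 of 71 cells in 4T1P, which allows a share of up to 4.23% if a count of 0 is taken to allow 3, and 4 of 90 cells (4.44%) in 4T1M. Unthinned, at median depths of 6192 and 5624 UMIs, their shares were 5.63% and 10.99%. B cells gave 0 of 31 and 0 of 30 thinned cells, which allows up to 9.68% and 10.0% by the same limit. The thinned macrophage shares lie close to this background. In CPM, which uses all UMIs, T and NK cells held 8.19 CPM (2.23 to 20.96) and 26.0 CPM (14.2 to 43.6) of stefin A, both below the macrophage levels of 25.3 and 87.3 CPM with intervals apart. For Cstb the thinned share was 46.6% and 56.9% in neutrophils, 42.0% and 43.7% in macrophages, 7.04% and 5.56% in T and NK cells and 12.9% and 10.0% in B cells. Stefin B thus stood well above the lymphocyte share in both myeloid classes.

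Kept cells in none of the 4 classes, 214 in 4T1P and 678 in 4T1M, carried 1376 and 1395 CPM of stefin A and 1175 and 1327 CPM of Cstb. Their stefin A level lay between those of neutrophils and macrophages, and their Cstb level above both.

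Whether stefin levels differ between neutrophils of non-responding and responding tumors was asked by the ratio of 4T1M over 4T1P, given as log2 with an exact conditional interval. The summed stefin A cluster had a log2 ratio of 0.10 (0.07 to 0.13), at the 57.9th percentile of 4953 genes with at least 100 UMIs, whose median was 0.04. The family as a whole was thus about as abundant in one library as in the other. Among the 8 members Cstb had the highest ratio, 0.44 (0.37 to 0.51), at the 87.2nd percentile. Stfa1, a gene of the cluster that is not a member, stood at 0.51 (-0.15 to 1.23) from 24 and 90 UMIs.

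The stefin A genes differed among themselves. Cstdc6 had a log2 ratio of 0.40 (0.20 to 0.60), Csta3 0.37 (0.13 to 0.61) and Cstdc4 0.26 (0.20 to 0.31), all with intervals above 0. Stfa2l1 stood at 0.08 (0.02 to 0.14) and Cstdc5 at 0.02 (-0.04 to 0.09). Stfa2 stood at -0.06 (-0.14 to 0.01) and Stfa3 at -0.21 (-0.33 to -0.09). Stfa3 was the only member whose interval lay wholly below 0. Of the 8 members, 6 had a ratio above 0 and 2 below, with a median of 0.17. None of the 8 passed a log2 ratio of 0.5 in either direction, where 10.5% of the 4953 genes were higher in 4T1M by that limit and 2.83% were lower.

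Several other features of the cells moved with the library. The S100a8 and S100a9 levels that define the class were lower in 4T1M (65996 against 56012 CPM and 92881 against 73538 CPM), and the median mitochondrial share of neutrophils was 2.76% in 4T1P and 1.81% in 4T1M. Of the 11 tested genes of the immature granule list, 5 were lower in 4T1M past 0.5 and 1 was higher. They include Camp, the cathelicidin precursor, at 3575 and 1908 CPM, and Ltf, lactoferrin, at 1517 and 803 CPM. Of 14 interferon-response genes, 11 were higher past 0.5 and 0 lower. Of 13 inflammatory genes 8 were higher and 0 lower, against 10.5% of all 4953 genes higher and 2.83% lower. The part of these differences in the stefin ratios was not tested.

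In macrophages 5 of the 8 members had at least 100 UMIs over both libraries, and 4 of these were higher in 4T1M past 0.5, against 4.64% of 8571 genes higher and 4.33% lower. These 4 are the stefin A genes with enough counts, while Stfa3, Csta3 and Cstdc6 had fewer than 100 UMIs there. Cstdc4 had a log2 ratio of 2.08 (1.72 to 2.45), from 79 and 355 UMIs. Stfa2l1 stood at 1.54 (1.10 to 2.01), Stfa2 at 1.69 (1.03 to 2.40) and Cstdc5 at 1.19 (0.67 to 1.73). S100a8 and S100a9, the neutrophil transcripts, moved with them in the same cells, at 0.97 (0.90 to 1.05) and 1.002 (0.94 to 1.07). Neutrophils made up 35.5% of kept cells in 4T1P and 48.7% in 4T1M. The summed log2 ratio of 1.79 (1.57 to 2.01) was 1.80 with macrophages under 0.5% of the S100 pair and 2.14 once the likeliest doublets were taken out. It was 1.25 (0.98 to 1.53) at a mitochondrial limit of 5% and 1.57 in cells of at least 2000 UMIs. The part of neutrophil RNA in these macrophage values was not tested. Cstb stood at 558 and 639 CPM in macrophages, a log2 ratio of 0.19 (0.14 to 0.25).

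The level of stefin A varied widely from neutrophil to neutrophil. The median neutrophil of 4T1P held 23.0 stefin A UMIs per 10000 and that of 4T1M 28.7, while the 90th percentile was 143 and 140 and the highest cell 517 and 488. No stefin A UMI was found in 103 of 612 cells (16.8%) and 241 of 1686 cells (14.3%). The highest 10% of cells by UMIs held 53.2% and 49.4% of all stefin A UMIs. This ranking includes depth, and for S100a8, which all but 1 neutrophil of each library held, the same share was 59.8% and 54.2%, and for Retnlg 71.5% and 70.9%. Among single members this share was highest for Stfa3, at 93.8% and 90.2%, followed by Csta3 at 92.6% and 84.8%. It was 78.2% and 74.7% for Stfa2 and 74.4% and 72.5% for Cstdc6. Sparse counts also raise it.

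In cells thinned to 1000 UMIs the variance of the summed stefin A count was 11.1 times its mean in 4T1P and 9.75 times in 4T1M, where pure counting noise would give a ratio near 1. Among single members this ratio was highest for Stfa2, at 6.05 and 4.89, and lowest for Cstdc6, at 1.26 and 1.41. The ratio also depends on the mean count, and Cstdc6 was among the sparsest, so it does not rank the members by unevenness alone. Cstb had 3.35 and 2.43, Retnlg 18.99 and 18.6, and S100a8 36.5 and 39.8. At this depth 22.5% and 22.8% of cells showed exactly 1 of the 7 genes, 10.5% and 8.92% showed 4, and all 7 were seen in 2 and 4 cells. At least 30 stefin A UMIs were counted in 14 and 31 thinned cells.

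**Figure D2:**
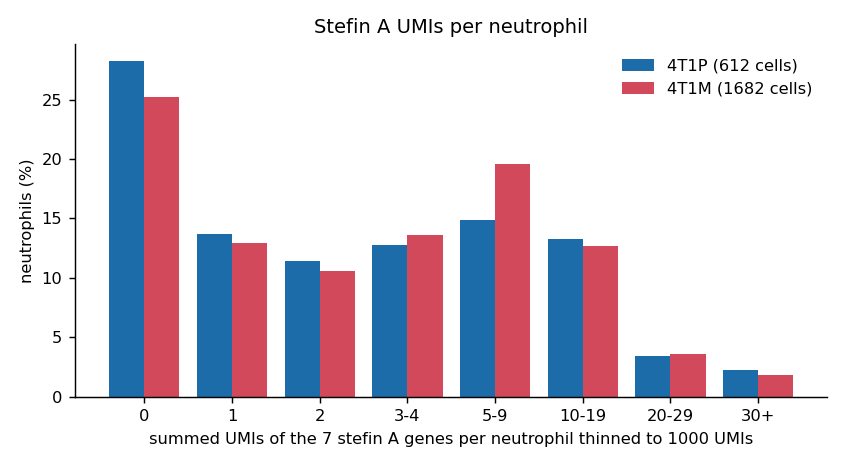
Share of neutrophils (percent) by the summed UMIs of the 7 stefin A genes after each cell was thinned to 1000 UMIs, for 612 cells of 4T1P and 1682 of 4T1M. Cells without a UMI are the largest bin (28.3% and 25.2%), and a tail of 2.29% and 1.84% of cells holds 30 or more.

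The stefin A genes varied together across neutrophils, with the highest median r among pairs of minus-strand genes. Pearson's r was computed between genes on log(1 + UMIs per 10000) over 612 and 1686 cells. The cells of a library share its preparation and differ in depth, and the members were chosen for this pattern. The median r over the 21 pairs was 0.35 in 4T1P and 0.36 in 4T1M, or 0.25 and 0.23 in thinned cells. The 6 pairs among the minus-strand genes Cstdc6, Cstdc5, Stfa2 and Stfa3 had medians of 0.51 and 0.51, the 3 pairs of the plus-strand genes Stfa2l1, Cstdc4 and Csta3 had 0.35 and 0.32, and the 12 pairs across the strands had 0.33 and 0.28. Thinned, these medians were 0.37 and 0.35, 0.24 and 0.23, and 0.24 and 0.19. Single pairs overlapped between the blocks. Cstdc4 with Cstdc5, across the strands, had 0.50 and 0.44, and Cstdc6 with Stfa3, both minus, had 0.27 and 0.36. Sparse genes such as Csta3 and Cstdc6 are spread unevenly over the blocks, and the part of detection level in the medians was not tested.

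The highest pair was Stfa2 with Cstdc5, at 0.62 in 4T1P and 0.59 in 4T1M, and next among the minus-strand genes came Cstdc5 with Cstdc6 at 0.54 and 0.57. Stfa2l1 with Cstdc4 reached 0.53 and 0.51. Stfa2 and Stfa2l1, whose coding sequences are nearly the same, had a lower r of 0.46 and 0.42. Cstdc5 and Cstdc6, by contrast, share many windows of sequence, and the part of this sharing in their r was not tested. The lowest pair was Csta3 with Cstdc6 at 0.07 and 0.11, both sparse genes. Over all neutrophils Cstb had r between -0.01 and 0.06 with the 7 genes in 4T1P and between -0.04 and 0.10 in 4T1M. Among cells of like S100 share its r with the summed cluster was weak but above 0, at 0.13, 0.06, 0.08 and 0.05 in 4T1P and 0.12, 0.08, 0.17 and 0.10 in 4T1M for shares of 1.5% to 5%, 5% to 10%, 10% to 15% and at least 15%.

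**Figure D3:**
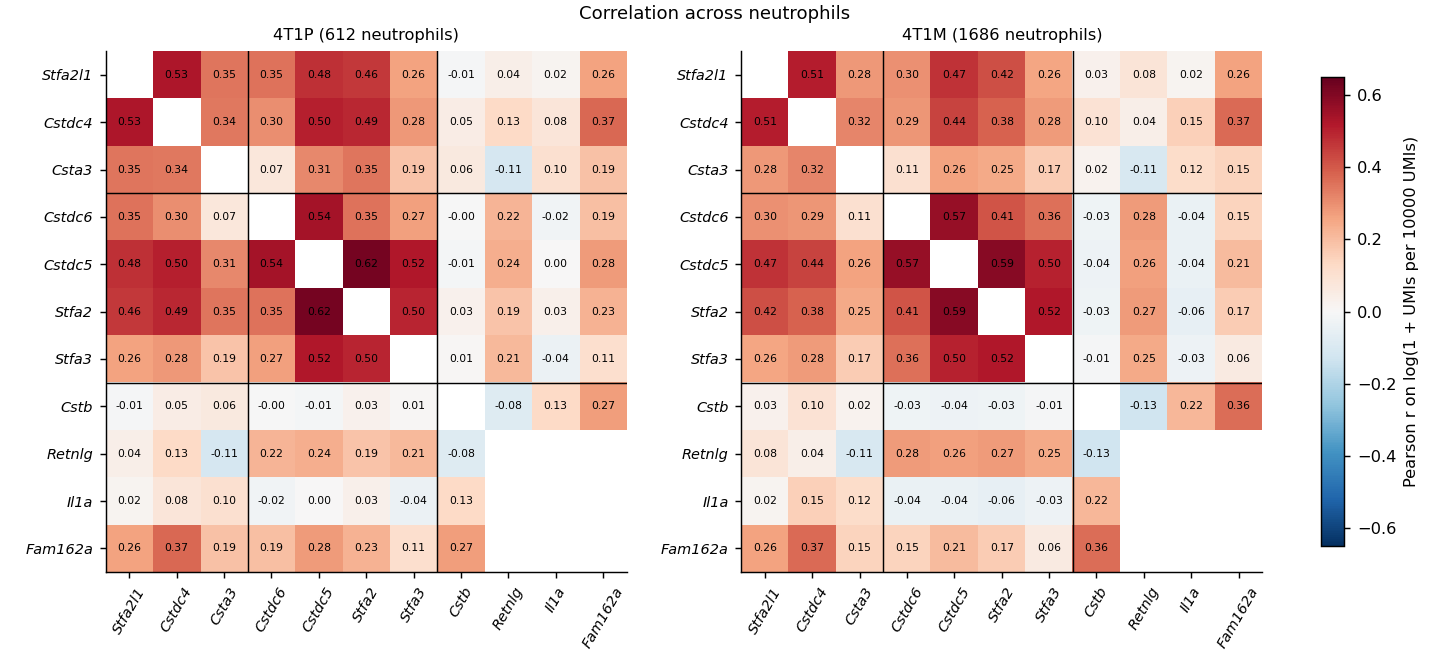
Pearson r across neutrophils of 4T1P (612 cells) and 4T1M (1686 cells) between members and with Retnlg, Il1a and Fam162a, with the plus-strand stefin A genes first, the minus-strand genes next and Cstb after them. Pairs of stefin A genes run from 0.07 to 0.62, and those with Cstb stay between -0.04 and 0.10.

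Retnlg, a resistin-like secreted protein of neutrophils, and Il1a, the cytokine interleukin 1 alpha of activated cells, separated the members. With Retnlg the minus-strand genes had r of 0.19 to 0.24 in 4T1P and 0.25 to 0.28 in 4T1M. Cstdc4 had 0.13 and 0.04, Stfa2l1 0.04 and 0.08, Csta3 -0.11 and -0.11, and Cstb -0.08 and -0.13. With Il1a the values were weak, at 0.13 and 0.22 for Cstb, 0.10 and 0.12 for Csta3 and 0.08 and 0.15 for Cstdc4. They lay between -0.06 and 0.03 for the other 5 stefin A genes. In thinned cells of 4T1P the r with Il1a was -0.01 for Cstb, 0.04 for Csta3 and 0.06 for Cstdc4. In thinned cells of 4T1M it was 0.08 for Csta3 and 0.10 for Cstdc4, and no value is given here for Cstb. With Retnlg the thinned values of the minus-strand genes in 4T1P were 0.13 to 0.22. In 4T1M they were 0.17 for Cstdc6, 0.21 for Cstdc5 and 0.22 for Stfa2, with none given here for Stfa3. The r with Retnlg and with Il1a was used to choose the members. Values of this size in sparse counts are weak and are given as a description.

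The sizes behind the r with Retnlg, which was used to choose the members, can be given in CPM from the same cells. Neutrophils were ranked by Retnlg after thinning to 1000 UMIs and split into 4 groups of equal size, with tied cells divided in file order, and CPM were taken over the UMIs outside the genes that ranked the cells. From the lowest to the highest group Stfa3 went from 32.5 to 631 CPM in 4T1P and from 93.6 to 587 CPM in 4T1M. Stfa2 went from 328 to 1261 and from 369 to 1352 CPM, and Cstdc5 from 403 to 1513 and from 503 to 1686 CPM. Stfa2l1 was level, at 1367 and 1361 CPM in 4T1P and 1490 and 1552 CPM in 4T1M. Csta3 was lower in the highest group than in the lowest, at 29.98 against 76.4 CPM in 4T1P and 45.6 against 150.5 CPM in 4T1M. The median depth of the lowest and highest groups was 2694 and 4210 UMIs in 4T1P and 2753 and 4142 UMIs in 4T1M.

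Ranking the cells by the summed counts of the 13 inflammatory genes gave another order. The list includes Il1a (644 and 1620 CPM), whose r was used to choose the members. The ranking leans on the chemokine gene Cxcl2, the most abundant of the list (34683 and 46282 CPM). Cstdc4 went from 1094 to 2200 CPM in 4T1P and from 1378 to 3014 CPM in 4T1M, and Csta3 from 25.4 to 205 CPM and from 39.9 to 221 CPM. Stfa2l1 went from 929 to 2104 and from 1327 to 1989 CPM. Stfa3, in contrast, went from 509 to 102 CPM and from 472 to 155 CPM. Cstb went from 611 to 1539 CPM and from 849 to 1914 CPM. All 3 plus-strand genes and Cstb were thus higher in the cells richest in summed transcripts of this list than in the poorest, and Stfa3 was lower. Stfa2 stood at 678 and 696 CPM and at 1065 and 686 CPM, and Cstdc5 at 981 and 897 and at 1482 and 827 CPM.

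The cells were also ranked by the 14 interferon-response genes. The summed stefin A level was 5517 CPM in the lowest and 4934 CPM in the highest group of 4T1P, and 6903 and 4718 CPM in 4T1M. Stfa3 went from 496 to 195 CPM and from 537 to 131 CPM, and Cstdc5 from 1262 to 903 and from 1474 to 715 CPM. Cstdc4 stood at 1466 and 1600 CPM and at 1887 and 1661 CPM, so its direction differed between the libraries. Ly6e, the interferon-stimulated surface marker that the study follows, was at 71.6 and 79.9 CPM in the lowest and highest groups by stefin A in 4T1P and at 233 and 135 CPM in those of 4T1M. Its r with the summed cluster was -0.03 and -0.11.

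The class rule itself uses S100a8 and S100a9, so the members were followed across the share of UMIs that this pair takes. Cells just outside the limit, with 1% to 1.5% of UMIs and not classed as macrophages, had 3785 CPM of stefin A in 4T1P (32 cells) and 3140 CPM in 4T1M (126 cells). Cells just inside, with 1.5% to 2%, had 1960 CPM (31 cells) and 3050 CPM (106 cells). Stefin A was thus not lower just outside the limit than just inside it. In cells with 15% or more from the pair the level was 5816 CPM (181 cells) and 7399 CPM (424 cells).

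Along this axis Csta3 and Cstb were lower in the highest bin than at 1.5% to 2%, and the other members were higher. From the 1.5% to 2% bin to the highest bin Stfa2 went from 288 to 1074 CPM in 4T1P and from 145 to 1378 CPM in 4T1M, and Stfa3 from 82.4 to 545 CPM and from 64.4 to 531 CPM. The minus-strand Cstdc5 went from 247 to 1238 CPM and from 357 to 1647 CPM, and Cstdc6 from 16.5 to 129 and from 32.2 to 247 CPM. The plus-strand Stfa2l1 rose too, from 346 to 1281 CPM and from 907 to 1704 CPM. Cstdc4 went from 856 to 1514 CPM and from 1465 to 1849 CPM. Csta3 stood at 151 and 134 CPM at 10% to 15% and at 35.5 and 42.5 CPM in the highest bin. Just outside the limit, at 1% to 1.5%, it stood at 156 and 72.4 CPM. Cstb went steadily the other way in 4T1M, from 1947 to 532 CPM, and in 4T1P from 1392 to 408 CPM. The highest bin is also where Camp, a transcript of immature neutrophils, was found, at 8134 and 5415 CPM against at most 58.3 CPM in the other neutrophil bins.

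**Figure D4:**
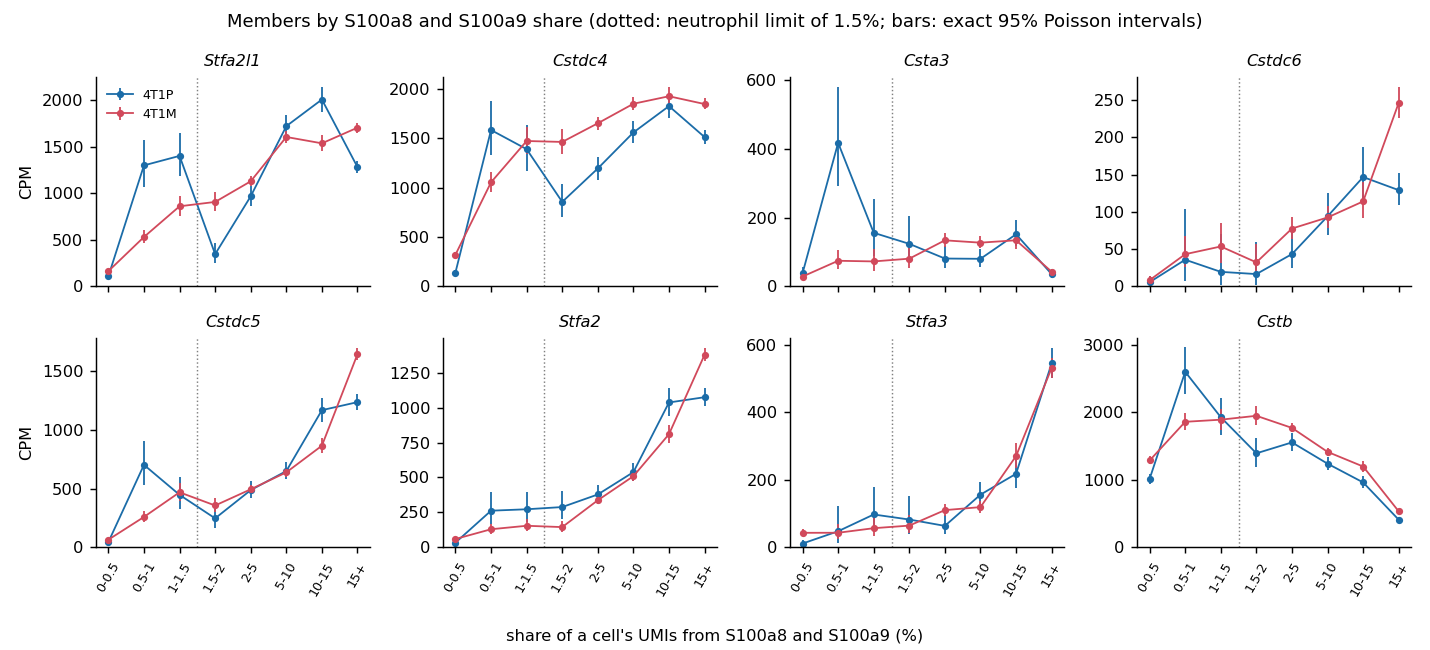
Level of each member in CPM against the share of UMIs from S100a8 and S100a9, with 95% Poisson intervals, for cells of 4T1P and 4T1M. Stfa2 and Stfa3 are higher at 15% or more than at 1.5% to 2% in both libraries, and Cstb is lower there (408 and 532 CPM).

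Of the genes that pair with the stefin A cluster across neutrophils, Fam162a, a mitochondrial membrane protein, stood first by a wide margin. Likeness was the lower r of the 2 libraries between a gene and the summed 7 genes, both per 10000 UMIs outside the 7, over 612 and 1686 cells, among 2672 genes with a UMI in at least 10% of neutrophils of both libraries. Fam162a had r of 0.38 in 4T1P and 0.34 in 4T1M, where the 99th percentile of all ranked genes was 0.13 and 0.11. It was followed by S100a8 (0.22 and 0.24), Retnlg (0.18 and 0.19), Wfdc21 (0.17 and 0.23), Prdx5 (0.17 and 0.15), S100a9 (0.15 and 0.15), Prok2 (0.16 and 0.14), Gapdh (0.20 and 0.14), Aldoa (0.14 and 0.13) and Sri (0.12 and 0.12). At the other end stood Gadd45b (-0.09 and -0.17), Ifrd1 (-0.09 and -0.11), the secreted cystatin C gene Cst3 (-0.09 and -0.09), Fgl2 (-0.09 and -0.11) and Ppia (-0.13 and -0.08), all of them weak.

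Fam162a is at chr16:36043761-36071594 on the minus strand, 48.4 kb from the cluster's edge at Csta1. This position was looked up after its rank was known. Of 27 other genes listed within 500 kb of the cluster, 8 including Fam162a were detected in enough cells to be ranked, and the other 7 had r between -0.04 and 0.08. None of its 1783 windows of 90 bases occurs in a stefin transcript. Its level was 514 CPM in 4T1P neutrophils and 571 CPM in 4T1M neutrophils, a log2 ratio of 0.15 (0.06 to 0.24). Unlike the stefin A genes it was common in macrophages, at 178 and 185 CPM.

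The size behind this r, by which Fam162a was picked, can be given in CPM from the same cells. In thinned cells of 4T1P the r of Fam162a with the summed cluster was 0.27. From the lowest to the highest of 4 groups of cells ranked by stefin A, Fam162a stood at 203, 306, 615 and 984 CPM in 4T1P and at 247, 404, 659 and 956 CPM in 4T1M. Median depth over these groups lay between 2840 and 3226 UMIs and between 2653 and 3260 UMIs. Within cells of like S100 share r stayed positive, at 0.44, 0.49, 0.43 and 0.29 in 4T1P and 0.47, 0.41, 0.37 and 0.23 in 4T1M for shares of 1.5% to 5%, 5% to 10%, 10% to 15% and at least 15%. The r of Retnlg in the same 4 groups went from 0.22 to 0.02 and from 0.18 to 0.02. Among single members r with Fam162a was highest for Cstdc4 (0.37 and 0.37) and lowest for Stfa3 (0.11 and 0.06), and Cstb, on another chromosome, had 0.27 and 0.36.

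**Figure D5:**
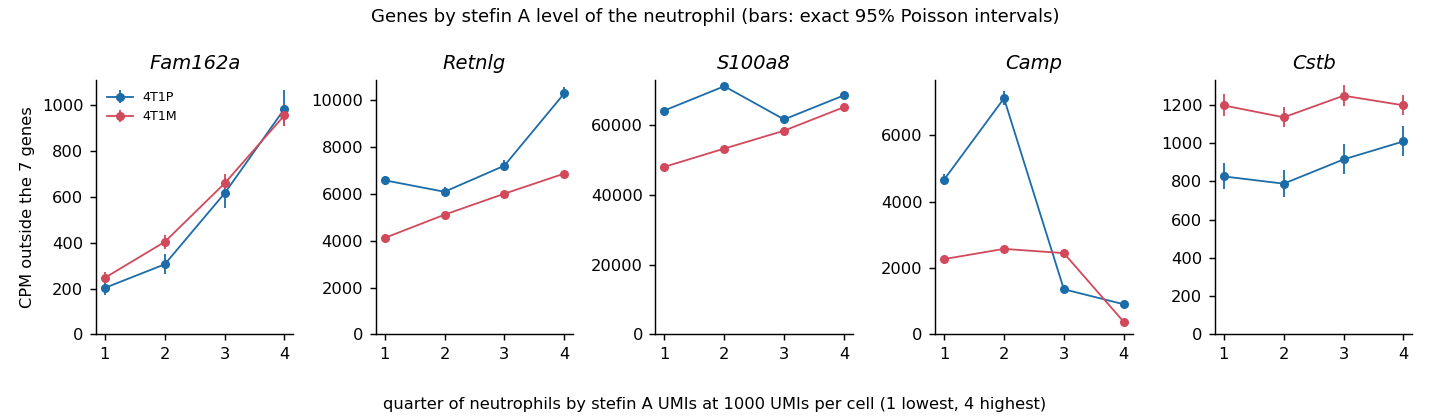
Level of Fam162a, Retnlg, S100a8, Camp and Cstb (CPM of UMIs outside the 7 stefin A genes) in 4 equal groups of neutrophils ranked on summed stefin A UMIs at 1000 UMIs per cell, for 4T1P (153 cells per group) and 4T1M (420 or 421), with 95% Poisson intervals. Fam162a goes from 203 to 984 CPM and from 247 to 956 CPM, while Cstb stays between 787 and 1247 CPM.

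Transcripts of immature neutrophils did not follow stefin A in a simple way. Over the 4 groups ranked by stefin A, Camp stood at 4661, 7106, 1361 and 909 CPM in 4T1P and at 2268, 2576, 2447 and 379 CPM in 4T1M. Ltf went from 2207 to 701 CPM and from 781 to 382 CPM. Ngp, neutrophilic granule protein, went from 5595 to 2231 CPM and from 2819 to 1344 CPM. These 3 granule genes were thus lower in the cells richest in stefin A than in the poorest. Lcn2, the iron-sequestering lipocalin, stood at 4871 and 3463 CPM in 4T1P but at 2457 and 3059 CPM in 4T1M.

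Ranked by the whole list of 14 immature granule genes instead, the cells showed the reverse for the minus-strand genes Stfa3 and Stfa2. No values of this ranking are given here for Cstdc5 and Cstdc6. Stfa3 went from 183 to 506 CPM in 4T1P and from 142 to 480 CPM in 4T1M from the lowest to the highest group, and Stfa2 from 591 to 1027 and from 558 to 1091 CPM. Stfa2l1 stood at 1483 and 1265 CPM and at 1399 and 1571 CPM. Cstb went from 1215 to 527 CPM and from 1520 to 793 CPM. The highest group was also the deepest, at median UMIs of 4669 against 2755 in the lowest for 4T1P and 4160 against 2592.5 for 4T1M.

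Retnlg went from 6568 to 10267 CPM and from 4109 to 6852 CPM between the cells poorest and richest in stefin A. It was itself highest, at 13878 and 12493 CPM, in the S100 bin that held Camp. Other genes of the mature list differed in their r with summed stefin A. It was 0.16 and 0.14 for Prok2. It was near 0 for Cxcr2 (-0.0013 and 0.03), Csf3r (0.0064 and 0.01) and Slpi (0.0082 and 0.05). No r is given here for the rest of the list. A ranking by the summed counts of the 12 genes of the mature list leans on its 2 most abundant genes. These are Retnlg (7459 and 5520 CPM), which was used to choose the members, and G0s2 (5397 and 4418 CPM). In this ranking the lowest group had 3859 CPM of stefin A and the highest 7027 CPM in 4T1P, and 3968 and 6696 CPM in 4T1M. Cstb again went the other way, from 1455 to 565 CPM and from 1767 to 724 CPM.

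The targets of the stefins are the cysteine cathepsins. They were listed together with legumain, which is not a cathepsin and is not counted here as a target. Of the 11 listed genes, 7 had enough counts in neutrophils, legumain included. In 4T1M 2 of the 7 were higher past 0.5, the cathepsin gene Ctss and the legumain gene Lgmn, and 0 were lower. Of all genes 10.5% were higher and 2.83% lower. The median log2 ratio of the 7 was 0.28, against 0.04 over all genes. Ctss, the cathepsin S of antigen processing, stood at 111 and 214 CPM, a log2 ratio of 0.95 (0.76 to 1.14), and Lgmn, the asparagine-specific protease legumain, at 57.9 and 83.4 CPM, 0.53 (0.26 to 0.80). Ctsb, the cathepsin B that stefins also bind, was the most abundant, at 783 and 836 CPM, followed by Ctsz (397 and 465 CPM) and Ctsl (358 and 382 CPM). In macrophages Ctsb stood at 2051 and 1870 CPM and Ctss at 2170 and 2867 CPM. These cathepsins were thus higher in macrophages, while stefin A was higher in neutrophils, a contrast that the choice of members used. The cystatin gene Cst3 was, like the cathepsins, higher in macrophages, and so was Lgmn, at 1523 and 1325 CPM there. Macrophage transcripts were also counted in the neutrophil class, where Apoe stood at 219 and 270 CPM against 8360 and 8985 CPM in macrophages. The part of macrophage RNA in the neutrophil values of these genes was not tested.

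Across neutrophils Cstb had higher r than stefin A with several cathepsins. The r of Cstb was 0.26 and 0.32 with Ctsb, 0.23 and 0.27 with Ctsz, 0.21 and 0.22 with Ctsl, and 0.15 and 0.20 with the aspartic protease Ctsd, but 0.05 and 0.05 with Ctss. It was -0.34 and -0.31 with the chemokine receptor Cxcr2 and -0.31 and -0.33 with S100a9. In thinned cells of 4T1P the r of Cstb was 0.20 with Ctsb, 0.12 with Ctsz, 0.15 with Ctsl and 0.09 with Ctsd. It was -0.17 with Cxcr2 and -0.25 with S100a9 in the same thinned cells. The summed stefin A cluster had r of -0.04 and -0.08 with Ctsb, 0.0027 and -0.03 with Ctsz, -0.02 and 0.01 with Ctsl, 0.03 and -0.05 with Ctss and 0.11 and 0.06 with Ctsd. In the cells poorest and richest in stefin A, Ctsb stood at 880 and 723 CPM in 4T1P and at 890 and 752 CPM in 4T1M, and Ctsd at 718 and 892 and at 845 and 959 CPM.

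Among other inhibitors, Cst3 stood at 386 and 361 CPM in neutrophils, a log2 ratio of -0.09, and 1250 and 1506 CPM in macrophages. Of 11 protease inhibitors of other families, 5 had enough counts. Wfdc17, of the whey acidic protein family, stood at 8420 and 6721 CPM, above the whole stefin A sum. Its relative Wfdc21 stood at 1858 and 1546 CPM, in the range of Cstdc4. Slpi stood at 632 and 608 CPM. Serpinb1a, an inhibitor of neutrophil serine proteases, stood at 98.3 and 65.3 CPM, a log2 ratio of -0.59. It was the one gene of the 5 past 0.5, where 2.83% of all genes were lower and 10.5% higher. The serine protease gene Ctsg had 0 UMIs in neutrophils of both libraries, which allows up to 1.20 and 0.456 CPM at a floor of 3 UMIs.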

How the data were processed

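For 2 libraries the authors deposited raw counts of UMIs by gene and barcode, made with Cell Ranger (version 4.0.0 in the submitters' processing notes) against mm10 (GRCm38), with no normalization and with barcodes above the mitochondrial limit included. Each group is 1 library of pooled mice, so no test was run. The counts of a class were added up in each library and scaled to CPM. CPM have exact Poisson intervals, shares have Clopper-Pearson intervals and ratios have exact conditional intervals, at 95% (Python 3.11.15, scipy 1.17.1). A ratio past 0.5 on the log2 scale among genes with at least 100 UMIs counts as higher or lower. T and NK or B cells were cells in neither myeloid class with at least 3 marker UMIs. The 2 neutrophil sums held 2502947 and 6580005 UMIs. No doublets were removed. Scrublet (scanpy 1.11.5) called 6 and 2 barcodes, which is not a usable number, and the 69 and 200 with the highest scores were removed as an alternative. Scaling by edgeR 4.0.16 and DESeq2 1.42.0, other mitochondrial, S100 and depth limits, per-cell means, thinning and Spearman's rho were further alternatives. Identities were computed with Biopython 1.88, and scripts were checked on simulated data.

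The members and gene lists were chosen with earlier results of these data known. Genes named besides the 8 members are genes of the fixed lists, Retnlg and Il1a, and the 10 most and 5 least like the summed stefin A genes. Fam162a's position and the TTTAAAA motif were examined after values were seen.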

Additional observations from a re-analysis of the deposited data

Results flagged for a closer look

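Stfa3 had a log2 ratio of 4T1M over 4T1P of -0.21 in neutrophils and 2.12 (1.27 to 3.07) in macrophages, opposite directions in the 2 classes. The macrophage value rests on 14 and 65 UMIs, and the difference was not tested, since there is 1 library per condition. S100a8 and S100a9, which define the neutrophil class, also had opposite directions, at -0.24 and -0.34 in neutrophils and 0.97 and 1.002 in macrophages. The part of neutrophil RNA in the macrophage value of Stfa3 was not tested.

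Stefin A transcripts were also present in barcodes that the filters removed. Barcodes with under 500 genes held 5239 CPM in 4T1P (313 barcodes) and 3510 CPM in 4T1M (592 barcodes), against 5195 and 5562 CPM in neutrophils. Barcodes above 10% mitochondrial UMIs held 980 CPM (775 barcodes) and 1548 CPM (903 barcodes). Barcodes above 5000 genes held 9.39 CPM (133 barcodes) and 185 CPM (48 barcodes).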

How the results depend on the processing

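Of 106 alternative values computed, 82 stayed, 24 moved and 0 reversed a called value. A value stayed if it lay within the counting interval of the reported value, or within 0.05 for a median r. The count of members past 0.5 stayed if it was unchanged. Of the reported log2 ratios judged here only those of neutrophils over macrophages passed 0.5, so no other value could be called reversed. The summed stefin A log2 ratio between the libraries was 0.043 as a mean of per-cell CPM and 0.041 with the S100 limit lowered to 0.5%, an alternative chosen after seeing the data, and that of Cstb was 0.30 as a mean of per-cell CPM. With cells of at least 2000 UMIs, 1 member, Csta3, passed 0.5 (0.50). Of 56 values for single stefin A genes 48 stayed and 8 moved, and the direction of Stfa2 (-0.20 to 0.07) and Cstdc5 (-0.03 to 0.11) depended on the setting. Stfa3 stayed below 0 (-0.28 to -0.06). The log2 ratio of neutrophils over macrophages was 7.11 in 4T1P at a mitochondrial limit of 5%, 9.06 and 7.39 in 4T1P and 4T1M with S100 limits of 5% and 0.5%, 8.25 and 6.21 without the highest doublet scores, and 6.25 in 4T1M with at least 2000 UMIs. The share of neutrophils with a stefin A UMI was 83.2% and 85.7% without thinning, and in 4T1M 79.0% at the 5% limit and 77.0% with at least 2000 UMIs. The median r was 0.25 and 0.23 in thinned cells. The cause of these moves was not tested. No paired analysis was possible because each group is 1 library. Csta3, Cstdc6 and the macrophage values rest on few UMIs, and counting intervals do not cover differences between mice.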
